A study of Drosophila melanogaster with 2 samples.

Results

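Binding of CG10147-GFP was examined at 9 genes of architectural and insulator proteins, Chro, Cp190, Dref, BEAF-32, CTCF, su(Hw), mod(mdg4), Trl and pzg, out of 13945 protein-coding genes on the chromosome arms that the peak lists cover. The genes were taken by their FlyBase symbol in the annotation that Ensembl distributes for this genome. Peaks were collected from 2 kb upstream to 2 kb downstream of each gene. CG10147 is a gene of Drosophila melanogaster whose product was assayed as a transcription factor. Chromatin immunoprecipitation and sequencing (ChIP-seq) was done with an antibody to GFP on whole embryos of mixed sex, 0 to 24 hours old, from a transgenic line that stably expresses CG10147 with GFP at its C-terminus. There was a single group of 2 libraries, biological replicates 2 and 3, both from that line, so no condition was compared and no test between groups could be made. Whole embryos mix all cell types and stages, so a site bound in few cells and a site bound weakly in many cannot be told apart.

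Insulators are DNA elements that separate regulatory domains, and the proteins that bind them also mark many borders of chromosomal domains. Some of these proteins read DNA directly: CTCF, su(Hw), BEAF-32, Dref and the GAGA factor encoded by Trl. Others are brought in by partners: Cp190 and Mod(mdg4) join several insulator complexes, and Chro (Chromator) and Pzg (also called Z4) occur together at the open interbands of polytene chromosomes. All are broadly expressed regulators of chromatin in the embryo.

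The authors deposited 30000 peaks per replicate and 30000 for the pooled libraries. A list of 4576 peaks thresholded by the irreproducible discovery rate (IDR peaks) consisted of the 4576 strongest pooled peaks. Signal is the value of the authors' peak caller for each peak, with no replicate error. It ran from 144.6 to 4880 among IDR peaks, with a median of 228.7. Rank 1 is the strongest peak of a list. In replicate 2, 16 mitochondrial peaks were set aside before ranking, 15 of which stood among its 25 strongest. The depth behind each value is unknown.

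Of the 9 genes, 8 had an IDR summit within 500 bp of one of their own transcription start sites (TSSs), and su(Hw) had none. Among all protein-coding genes the share was 20.3%. The 9 genes were chosen with earlier results of these data known, so this difference is a description only and was not tested. The same 8 genes were those with any IDR summit in the gene or within 2 kb of it, against 34.7% of all protein-coding genes. The windows differed in length, with a median of 8212 bp over the 9 genes and 6166 bp over all protein-coding genes. The windows of the 9 genes held 18 IDR peaks in all, with a median signal of 266.3 and a range from 152.8 to 2857. Own promoters held 10 of these peaks, promoters of other genes 4, and introns away from any TSS the other 4. Precursor units of mod(mdg4) that are annotated separately count as other genes here. No IDR summit of these windows lay in coding sequence, but an intronic mod(mdg4) peak had its matched replicate summits in a coding exon.

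**Figure D1:**
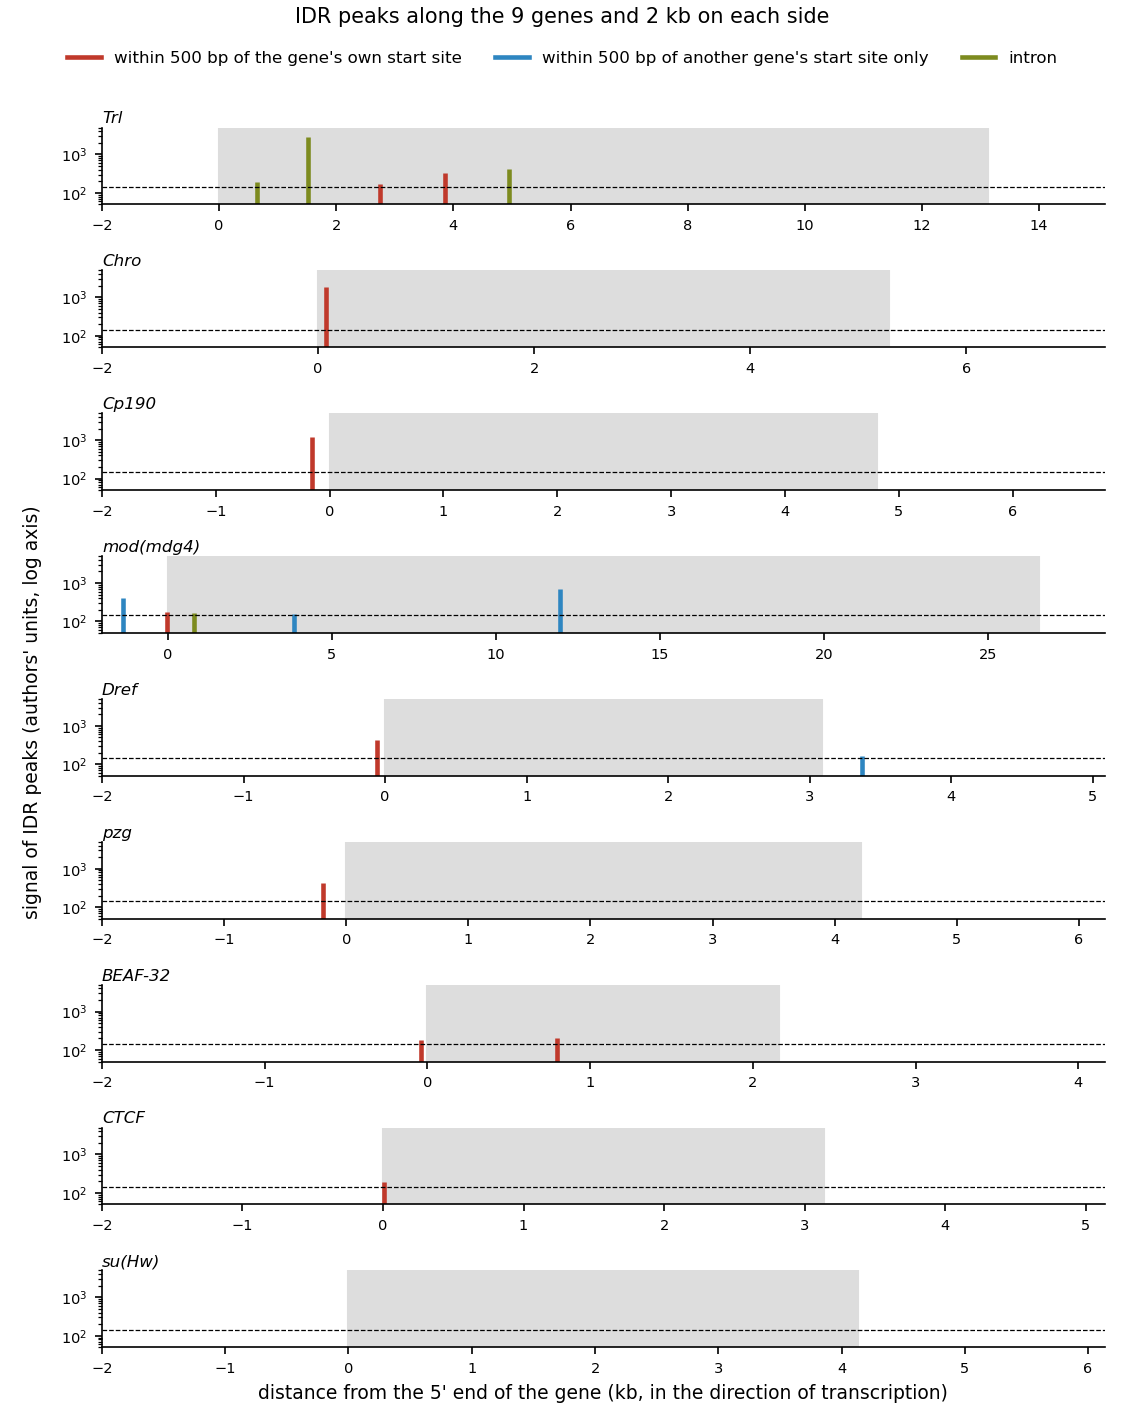
IDR peaks along each of the 9 genes and 2 kb on both sides. The horizontal axis is distance in kb from the 5' end of the gene, the vertical axis is signal on a log scale, the grey box is the gene, the dashed line is the weakest IDR peak (144.6) and colours give the class of each peak. Trl and mod(mdg4) carry 5 peaks each, su(Hw) none.

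The strongest promoter peak of each gene ranged from 174.0 at mod(mdg4) to 1809 at Chro. Chro and Cp190 had promoter peaks among the 100 strongest IDR peaks, as did 0.645% of protein-coding genes. Dref, pzg and Trl were intermediate. BEAF-32, CTCF and mod(mdg4) had 1.38, 1.31 and 1.20 times the signal of the weakest IDR peak. The median of the strongest promoter peak over the 8 genes was 373.9, beside 257.0 over the 2836 protein-coding genes with one. BEAF-32, CTCF and mod(mdg4) fell below the latter value. Of the 2836 genes, 30.5%, 26.2% and 18.6% had a strongest promoter peak at or below theirs.

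**Figure D2:**
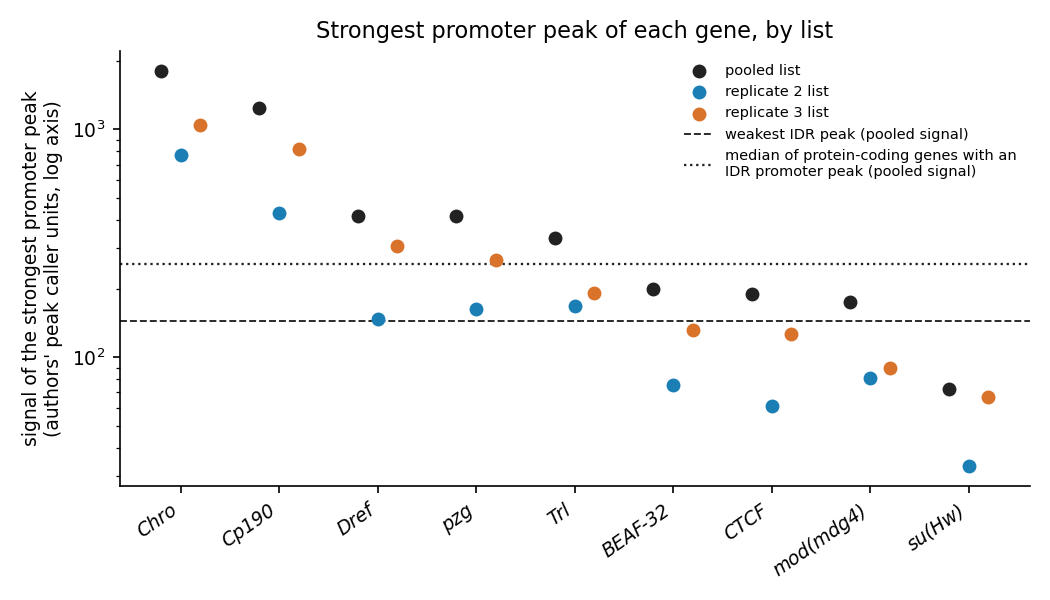
Signal of the strongest promoter peak of each gene (authors' units, log axis) in the pooled list (black), the replicate 2 list (blue) and the replicate 3 list (orange). The dashed line is the weakest IDR peak (144.6) and the dotted line is the median of protein-coding genes with an IDR promoter peak (257.0), both in pooled signal. Units differ between lists, so only the order of genes within a colour can be read, and Chro and Cp190 lead in each.

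The pair that encodes interband proteins, Chro and pzg, was bound at divergent promoters. Chro (FBgn0044324, 3L from 22873702 to 22878984, minus strand) had a single IDR peak, 22878710 to 22879105. Its signal was 1809 in the pooled list (rank 32), 768.4 in replicate 2 (rank 28) and 1047 in replicate 3 (rank 37). Only 29 protein-coding genes had a stronger promoter peak. The summit lay 72 bp downstream of the outermost Chro TSS, in the 5' UTR of the longest transcript, and 177 bp from the TSS of Ssl1, a gene for a subunit of the transcription and repair factor TFIIH that is read in the other direction. The summits of both replicate lists were within 6 bp of the pooled one.

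For pzg (FBgn0259785, 3L from 21286099 to 21290310, plus strand), the peak from 21285791 to 21285983 had a signal of 414.8 (rank 870). It reached 162.8 in replicate 2 (rank 889) and 266.7 in replicate 3 (rank 852), so both libraries placed it close to the pooled rank. The summit was 188 bp upstream of the pzg TSS and only 51 bp from that of CG12974 on the other strand. This site is therefore nearer to the neighbour than to pzg. Most of the summit windows of Chro and pzg lie in annotated 5' UTRs, so their sequence is not shown.

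Cp190 (FBgn0000283, 3R from 15270432 to 15275241, minus strand) encodes a BTB and zinc finger protein that serves as a shared cofactor of several insulator proteins. Its peak, 15275207 to 15275578, had a pooled signal of 1241 (rank 89), with 428.7 in replicate 2 (rank 125) and 818.0 in replicate 3 (rank 70). The summit lay 156 bp upstream of the Cp190 TSS and 125 bp from the TSS of CG4338, the divergent neighbour. No other pooled peak had its summit in the Cp190 window. The 200 bp around this summit had a GC content of 23.5%, the lowest of the 18 windows. The sequence is shown because it is the most A/T-rich of the promoter sites. It is read on the minus strand of dm6 (chr3R:15275297-15275496), and capitals mark a match to AAAATAT on either strand, a 7-mer found earlier to be frequent at summits of this series.
Cp190 promoter: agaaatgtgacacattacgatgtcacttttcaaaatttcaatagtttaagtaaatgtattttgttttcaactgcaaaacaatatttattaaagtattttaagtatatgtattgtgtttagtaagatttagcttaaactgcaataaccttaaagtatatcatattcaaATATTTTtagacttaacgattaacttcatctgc

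Dref (FBgn0015664, 2L from 9964147 to 9967229, minus strand) encodes the factor that binds TATCGATA at promoters of replication and housekeeping genes. Its promoter peak, 9967189 to 9967460, had a pooled signal of 417.7 (rank 856), with 147.4 in replicate 2 (rank 1070) and 306.1 in replicate 3 (rank 660). The TSSs of Dref and of the divergent ribosomal protein gene RpL13 are 84 bp apart. The pooled summit lay between them, 58 bp from that of Dref and 26 bp from that of RpL13. The replicates differed in which gene was nearer. In replicate 2 the summit lay inside RpL13, 98 bp from the Dref TSS and 3 bp from the nearest RpL13 TSS. In replicate 3 it lay 33 bp from the Dref TSS and 51 bp from that of RpL13. A second, weak IDR peak in the window (signal 161.7, rank 3873) lay at the promoter of the next gene, CG5850, past the 3' end of Dref. In replicate 2 it ranked 8162 and in replicate 3 3061.

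CTCF (FBgn0035769, 3L from 7353578 to 7356713, minus strand), the fly counterpart of the vertebrate insulator protein, had 1 TSS and no divergent neighbour. Its peak, 7356513 to 7356896, was the only pooled peak of the window. It had a signal of 189.0 (rank 3088) and a summit 8 bp from the TSS. Replicate 3 gave 126.2 (rank 2803) and replicate 2 gave 61.1 (rank 5285). The peak thus stood outside the strongest 4576 of replicate 2.

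The sequences between or beside the start sites of Dref and CTCF are shown because they hold the letters that Dref and BEAF-32 are known to read. Annotated UTR bases of the 200 bp windows were left out. Both are on the minus strand of dm6, Dref at chr2L:9967230-9967312 and CTCF at chr3L:7356714-7356804. Capitals mark matches on either strand to TATCGATA, to its inner part CGATA, or to AAAATAT.
Dref promoter: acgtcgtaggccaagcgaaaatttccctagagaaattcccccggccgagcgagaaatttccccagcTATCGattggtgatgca
CTCF promoter: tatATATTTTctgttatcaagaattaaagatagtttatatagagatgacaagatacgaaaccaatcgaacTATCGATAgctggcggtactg
The Dref promoter held CGATA but not the whole TATCGATA, while the CTCF promoter held the whole site.

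mod(mdg4) (FBgn0002781, 3R from 21350846 to 21377401, minus strand) encodes many protein isoforms that share a BTB domain. Their different ends are joined by trans-splicing from separate precursor units, annotated as genes with the prefix pre-mod(mdg4) on both strands. Its window of 30556 bp held 5 IDR peaks. The strongest was not at the mod(mdg4) TSS but 11961 bp into the gene (21365253 to 21365588). There the signal was 717.7 (rank 301), with 277.5 in replicate 2 (rank 305) and 455.5 in replicate 3 (rank 306). This summit lay 48 bp from the TSS of pre-mod(mdg4)-E and 150 bp from that of pre-mod(mdg4)-C and pre-mod(mdg4)-AB, all on the minus strand. It lay 169 bp from the shared TSS of 7 units on the plus strand, pre-mod(mdg4)-Y, -X, -AD, -AE, -W, -V and -U. A weaker peak (signal 152.8, rank 4205) lay 35 bp from the shared TSS of the units -AA, -N and -O. It ranked 3505 in replicate 3 but 9852 in replicate 2.

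At the mod(mdg4) TSS itself, the peak from 21377228 to 21377611 had a signal of 174.0 (rank 3501) and a summit 19 bp upstream. Replicate 2 gave 81.2 (rank 3242) and replicate 3 gave 89.5 (rank 4615), just outside the strongest 4576 of that list. A peak with its pooled summit in an intron, 805 bp downstream of the TSS (165.1, rank 3761), ranked 3366 in replicate 2 and 9464 in replicate 3. The matched summits of both replicates lay in a coding exon of mod(mdg4), 31 bp and 28 bp from the pooled one. The fifth peak, 1365 bp upstream of mod(mdg4), had a signal of 397.7 (rank 942), with 148.7 in replicate 2 (rank 1042) and 242.8 in replicate 3 (rank 1030). Its summit was 211 bp from the TSS of tin, a homeobox gene needed for heart formation. Thus 3 of the 5 peaks had their summits at start sites of other annotated genes, namely tin and precursor units of mod(mdg4) itself. Both of the strongest were among them.

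The mod(mdg4) promoter and the site between mod(mdg4) and tin are shown because the former holds TATCGATA beside AAAATAT and the latter only AAAATAT. Both are on the minus strand of dm6, at chr3R:21377402-21377519 (the part outside annotated UTR) and chr3R:21378666-21378865. Capitals mark TATCGATA, CGATA and AAAATAT on either strand.
mod(mdg4) promoter: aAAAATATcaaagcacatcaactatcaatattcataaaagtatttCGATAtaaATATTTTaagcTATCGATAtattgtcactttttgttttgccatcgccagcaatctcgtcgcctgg
mod(mdg4) to tin: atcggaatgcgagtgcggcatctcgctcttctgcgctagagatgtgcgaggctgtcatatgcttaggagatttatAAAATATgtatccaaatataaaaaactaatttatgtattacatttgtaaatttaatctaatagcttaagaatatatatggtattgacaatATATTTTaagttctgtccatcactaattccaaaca

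Trl (FBgn0013263, 3L from 14747929 to 14761049, minus strand) encodes the GAGA factor, which binds GAGAG repeats and keeps promoters free of nucleosomes. It had the strongest single site of the 9 genes, an intronic peak of 541 bp (14759288 to 14759828) whose summit was 1516 bp downstream of the first TSS. The signal was 2857 in the pooled list (rank 7), 1059 in replicate 2 (rank 11) and 1864 in replicate 3 (rank 5). Another 4 IDR peaks lay in the gene. The strongest at a start site, 14757088 to 14757299, had a signal of 332.9 (rank 1271), with 167.1 in replicate 2 (rank 843) and 190.5 in replicate 3 (rank 1502). It lay 141 bp inside an inner start site of Trl, in 5' UTR.

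The other 3 Trl peaks were weaker than the intronic one by a wide margin. A peak 341 bp upstream of an inner TSS that Trl shares with CG42507 had a signal of 174.7 (rank 3478), ranking 4710 in replicate 2 and 3196 in replicate 3. An intronic peak 642 bp from the first TSS had 193.9 (rank 2970) and ranked 2868 and 2981 in replicates 2 and 3. The last, in an intron 1238 bp from the nearest TSS, had 416.6 (rank 864) and differed between the libraries. Replicate 3 gave it 324.5 (rank 584) and replicate 2 gave it 67.0 (rank 4540), and another intronic replicate 2 summit nearby had 75.0. The outermost Trl start site had no IDR summit within 500 bp.

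The strongest Trl site is shown because no motif of the list was found in it, and the inner promoter because it alone among the 18 windows held GAGAG. Both are read on the minus strand of dm6, at chr3L:14759433-14759632 and chr3L:14758203-14758402. Capitals mark CGATA and GAGAG on either strand.
Trl intron: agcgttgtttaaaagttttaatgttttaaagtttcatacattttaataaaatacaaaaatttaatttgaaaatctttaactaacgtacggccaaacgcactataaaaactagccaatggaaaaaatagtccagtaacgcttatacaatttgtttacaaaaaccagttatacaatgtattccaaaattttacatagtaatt
Trl inner promoter: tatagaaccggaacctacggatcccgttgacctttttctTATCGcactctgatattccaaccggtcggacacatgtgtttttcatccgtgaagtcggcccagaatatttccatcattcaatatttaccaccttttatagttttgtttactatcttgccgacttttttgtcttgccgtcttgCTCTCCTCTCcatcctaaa
The intronic window had a GC content of 24.5% and the promoter window 42.0%.

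Trl and mod(mdg4), which held 5 IDR peaks each, were also the longest of the 9 genes. Whether length accounts for their counts was not tested. Windows with 5 or more IDR summits made up 0.961% of all protein-coding genes and 7.9% of the 1545 genes whose window was at least as long as that of Trl (17121 bp). The other 7 genes had windows from 6162 to 9283 bp and at most 2 peaks. Over all protein-coding genes with a promoter peak and at least 2 IDR peaks in the window, the strongest lay away from their own promoter in 578 of 1257 (46.0%). Of the 4 such genes here, this was so for Trl and mod(mdg4) and not for Dref and BEAF-32. For mod(mdg4) the strongest lay at start sites of its separately annotated precursor units.

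**Figure D3:**
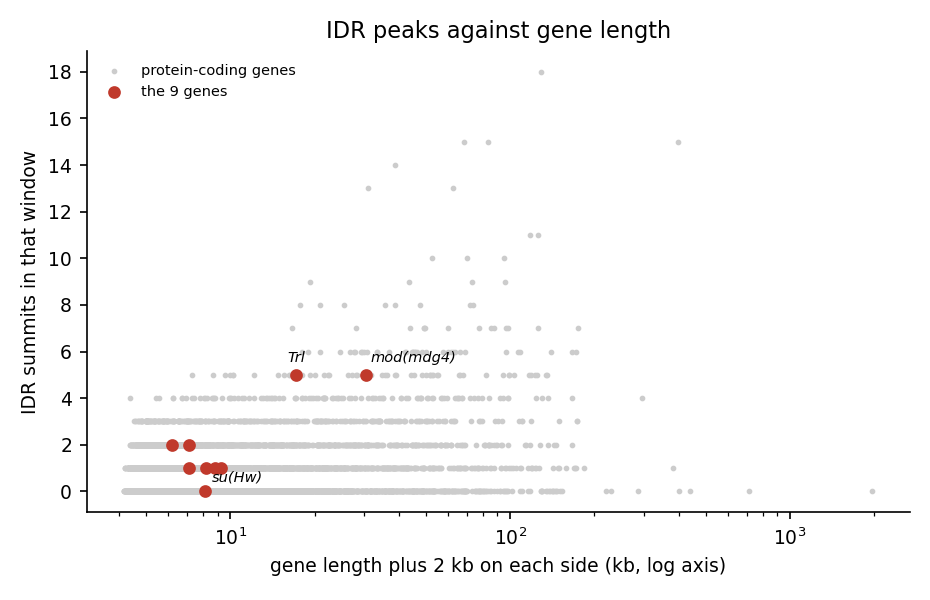
Number of IDR summits (vertical axis) against gene length plus 2 kb on each side (horizontal axis, kb, log scale) for 13945 protein-coding genes (grey) and the 9 genes (red). Trl and mod(mdg4) sit at 5 summits, among many long genes with as many or more, and su(Hw) sits at 0.

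BEAF-32 (FBgn0015602, 2R from 14770469 to 14772630, plus strand) encodes the boundary element-associated factor, which recognises clusters of CGATA. It had 2 weak promoter peaks. The stronger, 14771073 to 14771456, had a signal of 199.7 (rank 2838), with 75.1 in replicate 2 (rank 3728) and 131.5 in replicate 3 (rank 2639). Its summit lay 36 bp upstream of the innermost of the 3 TSSs and 30 bp from the TSS of the antisense RNA gene asRNA:CR42254. The other, 14770377 to 14770473, had a signal of 179.7 (rank 3350), with 74.7 in replicate 2 (rank 3763) and 101.4 in replicate 3 (rank 3821), and a summit 42 bp upstream of the outermost TSS. Pooled peaks of 133.2 and 123.4 nearby fell below the weakest IDR peak.

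su(Hw) (FBgn0003567, 3R from 14304455 to 14308589, minus strand) encodes the zinc finger protein of the gypsy insulator. Its strongest pooled peak, 229 bp upstream of the TSS, had a signal of 72.8 (rank 11765 of 30000). In replicate 3 a summit 205 bp upstream had 67.1 (rank 7097). In replicate 2 a summit 226 bp upstream had 25.9 (rank 17973), and one 231 bp downstream had 33.2 (rank 13208). A pooled peak at a promoter is common, since 44.8% of protein-coding genes had one, and with that list all 9 genes did. The TSS of Polr2I, for an RNA polymerase II subunit, faced away 500 bp upstream of su(Hw). The nearest IDR peak was 2700 bp from the gene, in an intron of CG31321 (signal 171.5, rank 3564).

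The libraries gave similar but not identical answers. Each of the 18 IDR peaks was matched by a summit at most 100 bp away in either replicate, as were 4117 of the 4576 IDR peaks. The strongest 4576 of both replicates held 12 of the 18 (66.7%), beside 61.6% of all IDR peaks. The larger of the ranks divided by the smaller had a median of 1.55 over the 18 peaks and 1.62 over all matched IDR peaks. The widest gap was at the Trl intron site of rank 864 (a ratio of 7.77), and 1.58% of matched peaks had a ratio at least as large. With the strongest 4576 peaks of replicate 2, 7 genes had a promoter peak (20.7% of all protein-coding genes), CTCF and su(Hw) having none. Replicate 3 gave 7 as well (20.6% of all), with su(Hw) and mod(mdg4) without.

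**Figure D4:**
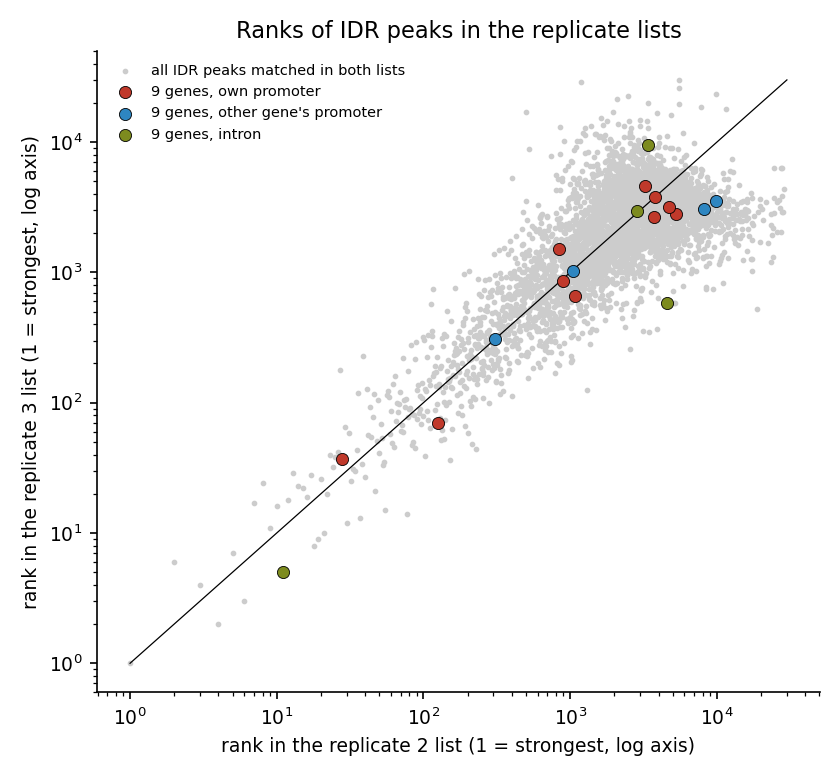
Rank of each IDR peak in the replicate 2 list (horizontal axis) and the replicate 3 list (vertical axis), both log scales with 1 the strongest. Grey points are all IDR peaks matched in both lists, coloured points are the 18 peaks of the 9 genes by class, and the line marks equal ranks. The Trl intron site at rank 4540 and 584 lies farthest from the line among the coloured points.

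How a summit is given to a gene mattered at shared promoters. Of the 9 genes, 6 were divergent, meaning that a neighbour read in the other direction started at most 500 bp upstream (Chro, Cp190, Dref, BEAF-32, su(Hw) and pzg), beside 29.5% of protein-coding genes. Over all protein-coding genes, 36.6% of such divergent genes had an IDR promoter peak and 13.5% of the others. With each summit counted only for the nearest TSS, 5 of the 9 genes had a promoter peak (15.2% of all protein-coding genes). The pooled summits of Cp190, Dref and pzg passed to their neighbours, as did their replicate 2 summits. In replicate 3 only that of pzg did. There the Cp190 summit was 118 bp from Cp190 and 163 bp from CG4338. The Dref summit was 33 bp from Dref and 51 bp from RpL13. Among IDR peaks above the median signal of that list 5 genes had one (11.9% of all), namely Chro, Cp190, Dref, Trl and pzg.

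At least 1 of the 7 motifs searched was in 13 of the 18 windows of 200 bp (72.2%), close to the share over all IDR windows (68.1%). CGATA was in 8 windows (44.4%) and in 29.3% of all 4576 IDR windows. The longer TATCGATA, which contains CGATA on both strands, was in 2 windows, those of CTCF and mod(mdg4), and in 4.11% of all. The k-mer AAAATAT was in 7 (38.9%) and in 29.5% of all. GAGAG was in 1 window and in 19.7% of all, and TGCATA, the core read by su(Hw), in 1 and in 14.5%. Neither the M1BP site GGTCACACT (1.7% of all windows) nor the CTCF core AGNNGGCGC (2.05%) was found at this window size. With 18 windows these shares are descriptions only. The windows had a GC content of 35.3% ± 7.82 (SD, 18 windows), beside 34.7% ± 7.45 over all IDR windows.

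The wider set of such genes was bound in part. Of 27 further genes for insulator proteins, their cofactors, cohesin and condensin, 11 (40.7%) had an IDR promoter peak, beside the 20.3% of all protein-coding genes. No test was made of that difference, and this list too was chosen with earlier results of these data known. The strongest was M1BP, which encodes a promoter-binding zinc finger protein (signal 540.0, rank 518), followed by shep, for an RNA-binding protein that acts on insulators (514.8), and e(y)2, for a small subunit of the SAGA complex (327.9). SMC1 of cohesin had 254.1, the histone kinase gene JIL-1 240.0 and Cap-H2 of condensin II 235.1. The BTB protein genes lolal (191.2) and psq (180.6), whose products work with the GAGA factor, were weak. The other three were Top2, SMC3 and pita, at 171.8, 167.6 and 158.6. Each of the 11 peaks was matched in both replicates, as were 4117 of all 4576 IDR peaks. Outside the strongest 4576 of a replicate were JIL-1 (rank 4839 in replicate 2), pita (6557 in replicate 3) and SMC3 (5230 and 5100 in replicates 2 and 3). The peaks of M1BP, e(y)2, Cap-H2, SMC3 and pita also lay within 500 bp of a TSS of another gene, and that of M1BP was 309 bp from its own TSS. Counting only the gene with the nearest TSS left 8 of the 27, beside 15.2% of all protein-coding genes under the same rule.

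Members of the same complex differed. SMC1 and SMC3 of cohesin had an IDR promoter peak, while vtd and SA1 of the same ring and its loader Nipped-B had none. The SMC3 peak was weak (signal 167.6) and ranked 5230 in replicate 2 and 5100 in replicate 3. It stood outside the strongest 4576 of both replicates, so the placing of SMC3 beside SMC1 rests on the pooled signal. Cap-H2 had an IDR peak at its promoter, also within 500 bp of a TSS of MED7. Cap-D3, also of condensin II, had none at its promoter but 1 IDR peak in the gene or within 2 kb. Among the genes for insulator-binding proteins and the subunits of the Elba complex, M1BP and pita had one, while dwg, ZIPIC, Ibf1, Ibf2, Clamp, insv and Elba1, Elba2 and Elba3 had none. Of the 16 genes with no IDR promoter peak, 3 had a weaker pooled one, fs(1)h (130.2), l(3)mbt (92.7) and Clamp (48.8). With the whole pooled list, 14 of the 27 genes had a promoter peak, beside 44.8% of all protein-coding genes.

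**Figure D5:**
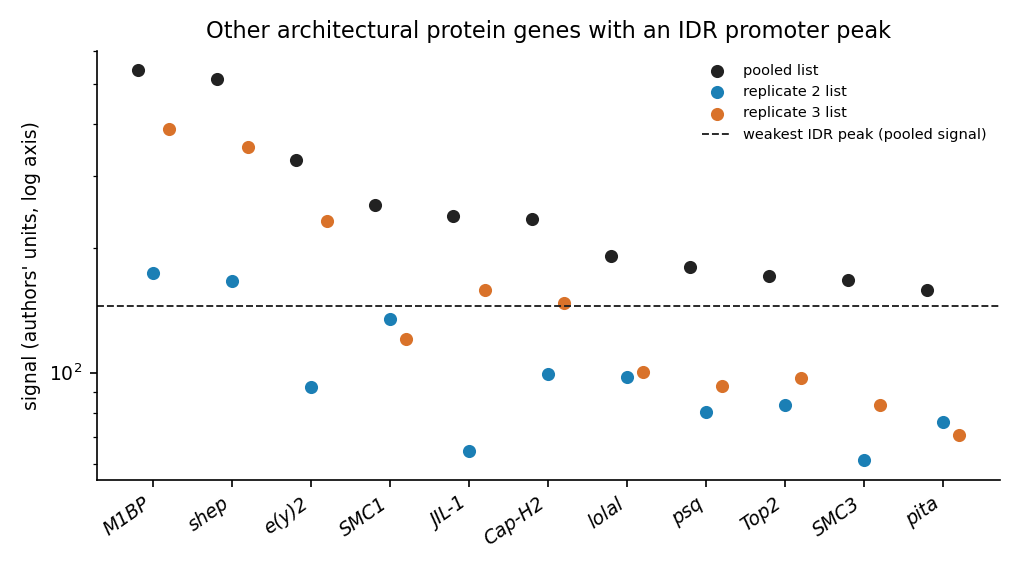
Signal (authors' units, log axis) of the strongest IDR promoter peak of the 11 further genes that had one, in the pooled list (black), and of the matched peak in replicate 2 (blue) and replicate 3 (orange). The dashed line is the weakest IDR peak (144.6, pooled signal). M1BP and shep stand highest and pita lowest in the pooled list.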

How the data were processed

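Peaks came from ChIP-seq of 2 libraries of 1 group. Per the labels' file lists, the authors called peaks on each replicate and on both alignments pooled, each with a control, and thresholded a list by IDR, all on dm6. The deposited signal per peak is the authors' peak caller's value. The deposited −log10 q-value sat at its maximum of 4.13 for every IDR peak, so signal was used for ranking. Peak caller, aligner, filters and depth are not given in the sources used here. Control libraries were not analysed here. Signals were compared only within a list.

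The gene models were those of FlyBase as distributed in Ensembl release 115, and sequence from the RefSeq Release 6 assembly, which has dm6 coordinates. All peaks on the arms ended within their chromosomes. Transposable elements were left out. A promoter is the sequence within 500 bp of an annotated TSS, summits were matched within 100 bp, and coordinates are 1-based. The mitochondrial peaks of replicate 2 were removed before ranking. Motifs were searched on both strands. The older symbol SA was matched to SA1. The members, gene lists and motifs were chosen with earlier results of these data known. All 9 members are named, with genes whose TSS lies within 500 bp of their IDR summits and at most 8 further genes with the strongest promoter peaks. Top2, SMC3, pita and genes without a peak were named after their values were seen. Counting was checked on planted peaks. Python 3.11.15 and pandas 2.3.3 were used.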

Additional observations from a re-analysis of the deposited data

How the results depend on the processing

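Counts of genes and peaks were recomputed under 36 alternatives, and 28 stayed within 1.5 times the reported value. Some of these could not have moved, so the 28 are no measure of stability. Looser settings could raise 8 genes only to 9. All 18 peaks were already matched in both replicates, so keeping only matched peaks could change nothing. With IDR peaks above the median signal alone, genes with a promoter peak fell from 8 to 5 and further architectural genes from 11 to 6. At that setting 11.9% of all protein-coding genes had one. IDR peaks in the windows fell from 18 to 9. The whole pooled list gave 40 peaks. With gene bodies alone, 5 genes held 11 peaks, and the share of all protein-coding genes at that setting was not computed. Counting a summit only for the nearest TSS, chosen after seeing the data, gave 5 genes, beside 15.2% of all protein-coding genes. Windows of 100 bp held any motif in 8 of 18 cases, against 13 with 200 bp and 17 with 400 bp. Without replicate 2 or without replicate 3, promoter peaks were at 7 genes and at 10 to 12 of the further genes, peaks within 2 kb at 7 to 8 genes, and peaks in the windows numbered 17 to 19. GAGAG was in 0 windows of 100 bp and in 5 of 400 bp. With 400 bp, CGATA went from 8 to 13 windows, TATCGATA from 2 to 4, TGCATA from 1 to 2 and AGNNGGCGC from 0 to 3. With 100 bp, AAAATAT was in 3 windows and not 7. No value has a replicate error, and depth is unknown, so a gene without an IDR peak was not shown to be unbound.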
